A study of Arabidopsis thaliana with 10 samples.

Results

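PR1 (AT2G14610), PR2 (AT3G57260) and PR5 (AT1G75040) are the Arabidopsis thaliana genes most used as readouts of salicylate defence. They were taken by locus identifier, as 3 of the 33602 genes in a table of RNA sequencing counts from whole seedlings. The 10 libraries form 5 groups of 2, all in the Col-0 background. DIF-OX2, a line that overexpresses DIF, was grown with 10 µM dexamethasone (Dex), here called induced DIF-OX2, and without it. Wild-type Col-0 was grown in the same 2 ways. The mutant dal-2, named for DAL (DIFFERENTIATION AND GREENING-LIKE, AT2G33430), was grown without Dex. Dex is a synthetic glucocorticoid that plants do not make, used as an inducer of transgenes. Every medium held 0.1% ethanol, the solvent of Dex, and all seedlings had 4 open true leaves when harvested. DIF-OX2 and Col-0 seedlings were 12 days old, and those of dal-2 were 20 days (replicate 1) and 21 days (replicate 2). Genotype and age therefore cannot be told apart in dal-2, and neither can replicate and age. DIF-OX2 is a single line. Neither the promoter of its transgene nor the nature of the dal-2 allele is stated in the labels.

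Pathogenesis-related proteins are secreted or vacuolar proteins that plants make when attacked. PR1 is a small secreted protein of the CAP family that binds sterols, PR2 is a beta-1,3-glucanase that cuts glucans such as those of fungal walls, and PR5 is a thaumatin-like protein with antifungal relatives in other plants. Infection by biotrophic pathogens raises salicylate, which is made in the plastid and cytosol through ICS1, EDS5 and PBS3. The receptor NPR1 then acts with TGA factors, which bind TGACG, and with WRKY factors, which bind the W box around TTGAC, to switch on the PR genes. In unstressed leaves these PR genes are known to be low.

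The promoters of PR2 and PR5 are shown because these genes kept nearly the same proportion to each other in both dal-2 replicates. Coordinates and bases are those of RefSeq TAIR10.1, and each line gives the 250 bases before the annotated start, read along the gene's strand. Capitals mark TTGAC or its reverse complement GTCAA, and would also have marked TGACG or CGTCA.
PR2, chr3:21189968-21190217, minus strand: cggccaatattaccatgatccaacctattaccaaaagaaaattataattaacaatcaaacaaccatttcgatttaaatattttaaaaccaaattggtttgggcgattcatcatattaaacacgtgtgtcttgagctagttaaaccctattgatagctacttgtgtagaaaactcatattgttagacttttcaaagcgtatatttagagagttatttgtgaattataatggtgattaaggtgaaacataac
PR5, chr1:28177420-28177669, plus strand: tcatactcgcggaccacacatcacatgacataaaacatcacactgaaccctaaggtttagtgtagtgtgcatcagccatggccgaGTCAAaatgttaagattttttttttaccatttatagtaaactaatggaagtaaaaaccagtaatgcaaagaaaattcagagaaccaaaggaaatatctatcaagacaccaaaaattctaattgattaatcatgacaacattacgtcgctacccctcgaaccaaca
PR5 held 1 TTGAC on the opposite strand, 165 to 161 bases before its start. PR2 held none, and neither window held TGACG on either strand. Searched on both strands in the same way, 44.9% of 27443 gene promoters held TTGAC and 18.6% held TGACG, so a match is common. A match is a description of letters and not of a bound site.

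PR1 lies on chromosome 2 at 6241640 to 6242541, on the minus strand, as 1 exon of 902 bases that encodes 161 residues. PR2 lies on chromosome 3 at 21188397 to 21189967, on the minus strand, with 2 annotated transcripts. Their exons together cover 1477 bases, and they encode 339 and 355 residues. PR5 lies on chromosome 1 at 28177670 to 28179022, on the plus strand, with 2 exons that cover 1095 bases and encode 239 residues. These are positions in TAIR10.1, whereas the submitters' processing notes name TAIR10.

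Depth ran from 8805568 to 16556322 counts per library, and levels are given in CPM, the counts scaled to library size by TMM. DAL was at 29.5 and 35.7 CPM in dal-2, against 97.9 and 107 CPM in Col-0 (log2 fold change −1.65, adjusted p = 3.24e-04), so it was lower in both libraries labelled as its mutant but not at 0. Markers of green leaf tissue (RBCS1A, LHCB1.3 and CA1) and of root tissue (PRP3, EXPA7, COBL9, CASP1 and PHT1;1) all had counts in every group. The 3 leaf markers added up to 15200 and 10200 CPM in induced DIF-OX2 and to 1190 and 2810 CPM in dal-2. In DIF-OX2, Col-0 on Dex and Col-0 they summed to between 29300 and 34500 CPM. The 2 dal-2 libraries stood further apart from each other than any other pair: the SD of log2 replicate differences over genes was 0.745 in dal-2 and 0.355 to 0.439 elsewhere. In whole seedlings, fewer cells of a type and less RNA per cell cannot be told apart. The labels do not say that replicates came from separate cultures, so p-values measure the spread between these libraries, which may be technical.

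PR1 was nearly silent in 7 of the 10 libraries and abundant in 3. It had 197 and 232 counts in induced DIF-OX2 (21.2 and 14.1 CPM) and 628 and 7 counts in dal-2 (42.9 and 0.389 CPM). It had 3 and 0 counts in DIF-OX2, 1 and 1 in Col-0 on Dex, and 2 and 2 in Col-0, none above 0.237 CPM. Both induced DIF-OX2 libraries were therefore high, dal-2 replicate 1 was the highest of all, and dal-2 replicate 2 sat close to the silent libraries. The group means were 21.6 ± 30.0 CPM in dal-2, 17.7 ± 5.04 in induced DIF-OX2, 0.219 ± 0.00502 in Col-0, 0.119 ± 0.168 in DIF-OX2 and 0.0815 ± 0.0189 in Col-0 on Dex (SD, n = 2 each). The dal-2 and induced DIF-OX2 means do not differ beyond their spread, and the order of the 3 low groups rests on 2 to 4 counts per group.

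PR2 had counts in every library, and per kilobase of exon it was the lowest of the 3 genes in the induced line. It was at 6.46 and 5.83 CPM in induced DIF-OX2 and at 12.0 and 2.94 CPM in dal-2. It was at 1.11 and 0.962 CPM in DIF-OX2, 2.18 and 2.25 CPM in Col-0 on Dex, and 1.00 and 0.647 CPM in Col-0. All 4 libraries of dal-2 and induced DIF-OX2 lay above all 6 others, with dal-2 replicate 2 the closest to them. In order of level, the group means were 7.48 ± 6.41 CPM in dal-2, 6.15 ± 0.448 in induced DIF-OX2, 2.21 ± 0.0465 in Col-0 on Dex, 1.04 ± 0.103 in uninduced DIF-OX2 and 0.825 ± 0.251 in Col-0 (SD, n = 2 each). Ranges overlapped between the first pair of neighbours in this order and between the last pair.

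Per kilobase of exon, PR5 was the highest of the 3 genes in all 6 libraries of uninduced DIF-OX2 and Col-0. It was at 24.6 and 22.7 CPM in induced DIF-OX2 and at 26.8 and 6.88 CPM in dal-2. It was at 6.33 and 5.16 CPM in DIF-OX2, 4.36 and 5.24 CPM in Col-0 on Dex, and 3.79 and 1.83 CPM in Col-0. Again all 4 libraries of dal-2 and induced DIF-OX2 exceeded the other 6, but dal-2 replicate 2 was only slightly above the uninduced DIF-OX2 libraries. Group means were 23.6 ± 1.31 CPM in induced DIF-OX2, 16.8 ± 14.1 in dal-2, 5.75 ± 0.829 in DIF-OX2, 4.80 ± 0.623 in Col-0 on Dex and 2.81 ± 1.38 in Col-0 (SD, n = 2 each). induced DIF-OX2 overlapped with dal-2, and DIF-OX2 with Col-0 on Dex.

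**Figure D1:**
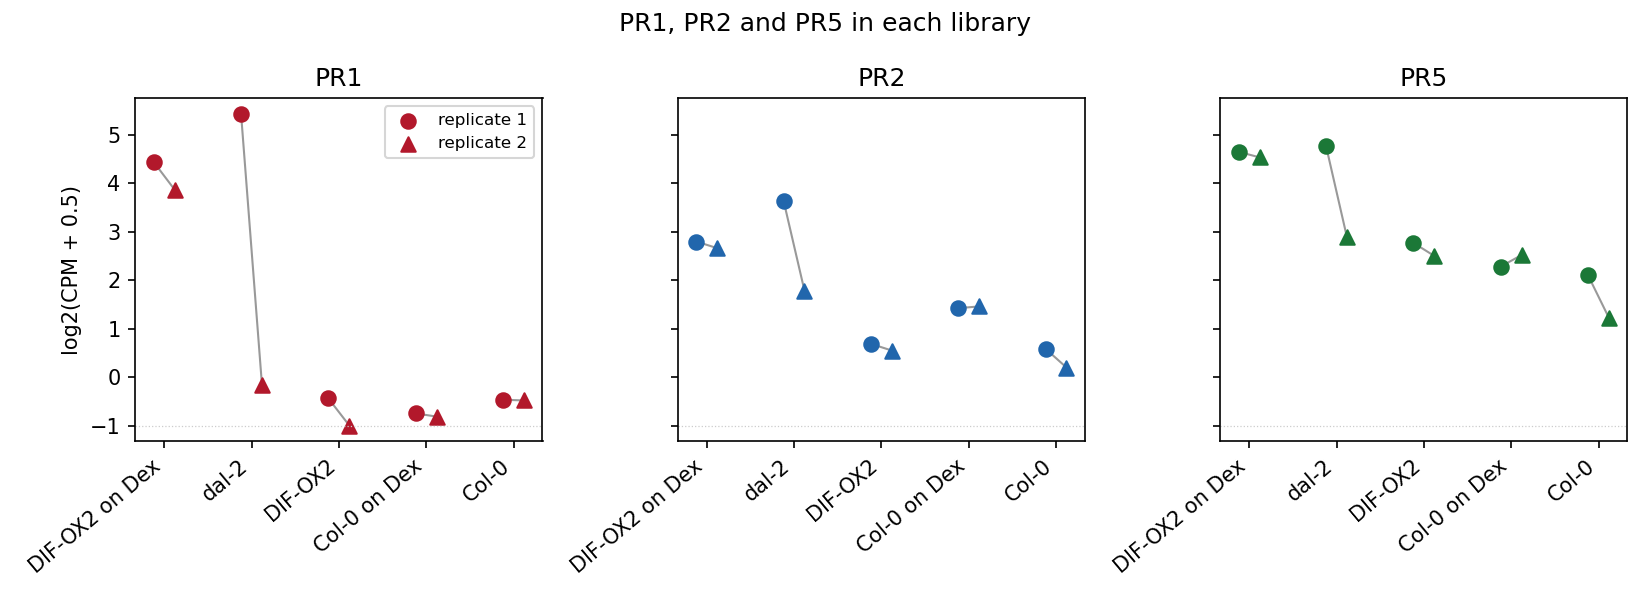
Level of PR1, PR2 and PR5 in each of the 10 libraries as log2(CPM + 0.5), with circles for replicate 1, triangles for replicate 2, a line joining the pair, and a dotted line at 0 CPM. Both DIF-OX2 libraries on Dex sit high in all 3 panels, whereas the dal-2 pair spans 42.9 to 0.389 CPM for PR1, 12.0 to 2.94 CPM for PR2 and 26.8 to 6.88 CPM for PR5.

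The 3 genes also changed rank among themselves. Per kilobase of exon, PR1 was above PR5 in 2 libraries only, induced DIF-OX2 replicate 1 (23.5 against 22.4 CPM per kb) and dal-2 replicate 1 (47.5 against 24.5 CPM per kb). The ratio of PR1 to PR5 per kilobase was 1.05 and 0.753 in induced DIF-OX2 and 1.94 and 0.0685 in dal-2, and at most 0.143 in the other libraries. The ratio of PR2 to PR5 varied far less, from 0.130 to 0.371 over all 10 libraries, and was 0.332 and 0.317 in the 2 dal-2 libraries. PR2 and PR5 thus kept nearly the same proportion in both dal-2 replicates, while PR1 did not.

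Induction of DIF was tested first with both genotypes on Dex. PR1 and PR5 were higher in DIF-OX2 than in Col-0, and PR2 was higher in both libraries without passing the test. Of all 20681 genes tested, 22.0% were called at an adjusted p of 0.05 in either direction, 11.6% higher and 10.4% lower. All 3 genes were tested, though PR1 reached the filter's cutoff in only 3 libraries and passed through the groups in which it is high. The p-values and calls of PR1, here and in the other comparisons, are therefore a description and no independent support. PR1 had 429 counts in the DIF-OX2 pair and 2 in the Col-0 pair, a depth-corrected count ratio of 210 (95% counting interval 57.8 to 1740; edgeR adjusted p = 0.0457). PR5 averaged 23.6 CPM in DIF-OX2 and 4.80 CPM in Col-0 (log2 fold change 2.29, SE 0.57, adjusted p = 0.0238). PR2 averaged 6.15 CPM in DIF-OX2 and 2.21 CPM in Col-0 (log2 fold change 1.46, SE 0.58, adjusted p = 0.108). The groups did not overlap for any of the 3 genes. The share of all genes without overlap was not counted, so separation of 2 libraries from 2 is only a description in each comparison. The calls of PR1 and PR5 ended without any 1 of the 4 libraries, and PR1 also missed under limma-voom (adjusted p = 0.317). When both dal-2 libraries were left out of the fit, PR2 passed as well (1.46, adjusted p = 0.00148). In that edgeR fit PR1 (7.6, adjusted p = 3.96e-05) and PR5 (2.28, adjusted p = 2.51e-04) kept their size with lower adjusted p-values.

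Within DIF-OX2, all 3 genes rose with Dex, where 24.3% of genes were called and 12.7% were called higher. PR1 had 429 counts with Dex and 3 without it, a count ratio of 134 (95% counting interval 45.4 to 650; adjusted p = 0.0463). PR2 rose by 2.55 on the log2 scale (SE 0.64, adjusted p = 0.0235), with means of 6.15 CPM on Dex and 1.04 CPM without. PR5 rose by 2.03 on the log2 scale (SE 0.56, adjusted p = 0.0327), with means of 23.6 CPM on Dex and 5.75 CPM without. The Dex and no-Dex libraries of this line did not overlap for any of the 3, again only a description. Leaving out any 1 of the 4 libraries ended all 3 calls, and limma-voom called PR5 but not PR1 (adjusted p = 0.318) or PR2 (adjusted p = 0.0784). With both dal-2 libraries left out of the edgeR fit, the adjusted p was 4.12e-05 for PR1, 1.86e-04 for PR2 and 3.61e-04 for PR5. This comparison and the one before it share the induced DIF-OX2 libraries.

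In Col-0, no effect of Dex on these genes passed the test. Of all genes, 0% were called by edgeR, DESeq2 or limma-voom. An unadjusted edgeR p under 0.05 was found for 566 genes, fewer than the 1034 expected by chance. PR2 averaged 2.21 CPM on Dex and 0.825 CPM without it (log2 fold change 1.42, SE 0.75, unadjusted p = 0.0951, adjusted p = 1.0). PR5 averaged 4.80 CPM on Dex and 2.81 CPM without it (0.78, SE 0.66, unadjusted p = 0.269). Both wild-type libraries on Dex exceeded both without it for PR2 and PR5, and PR1 had 2 counts on Dex and 4 without. When both dal-2 libraries were left out of the fit, PR2 had an unadjusted p of 0.00187 (adjusted p = 0.568) and PR5 of 0.0296 (adjusted p = 0.867). The log2 difference of PR2 between Col-0 on Dex and Col-0 was about as large as the 1.46 between induced DIF-OX2 and Col-0 on Dex. It amounted to a count ratio of 2.70 (95% counting interval 1.51 to 5.14, counting error only). The test of whether Dex acted differently in DIF-OX2 and Col-0 called none of the 3 genes, where 6.33% of all genes were called. The difference between the Dex effects was 8.39 for PR1 (SE 6.29, adjusted p = 0.476), 1.13 for PR2 (SE 1.03, adjusted p = 0.567) and 1.25 for PR5 (SE 0.87, adjusted p = 0.439), in log2 units. For PR1 the DESeq2 Wald test (8.62, adjusted p = 0.00324) and a fit without both dal-2 libraries (8.37, adjusted p = 0.0125) did call it.

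Without Dex, DIF-OX2 differed little from Col-0, and 0.00967% of genes (2, both lower in DIF-OX2) were called. PR5 averaged 5.75 CPM in DIF-OX2 and 2.81 CPM in Col-0 and the libraries did not overlap (1.04, SE 0.65, unadjusted p = 0.150, adjusted p = 1.0). PR2 averaged 1.04 CPM in DIF-OX2 and 0.825 CPM in Col-0, with overlapping libraries (0.33, SE 0.83, adjusted p = 1.0). PR1 had 3 counts in DIF-OX2 and 4 in Col-0, too few for a direction.

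In dal-2 against Col-0, all 3 genes were called higher, where 33.9% of genes were called, 15.9% higher and 18.0% lower. PR1 entered this test through the induced DIF-OX2 libraries, and with only the dal-2 and Col-0 libraries the filter removed it. PR1 had 635 counts in dal-2 and 4 in Col-0, a count ratio of 88.7 (95% counting interval 34.5 to 326; adjusted p = 0.0401), and 628 of the 635 came from dal-2 replicate 1. Without that library the log2 fold change of PR1 was 0.79 (adjusted p = 0.565). PR2 averaged 7.48 CPM in dal-2 and 0.825 CPM in Col-0 (log2 fold change 3.16, SE 0.69, adjusted p = 0.0101). PR5 averaged 16.8 CPM in dal-2 and 2.81 CPM in Col-0 (2.58, SE 0.62, adjusted p = 0.0152). Both dal-2 libraries lay above both Col-0 libraries for all 3 genes, a description without the share of all genes that do so. For PR1, dal-2 replicate 2 did so with 7 counts (0.389 CPM) against 2 counts in each Col-0 library (0.223 and 0.216 CPM). Without dal-2 replicate 1, PR2 stayed called at 1.82 (adjusted p = 0.00399) and PR5 at 1.29 (adjusted p = 0.0150), with the lone dal-2 library assumed to vary like the other groups. The calls of PR2 and PR5 were lost without Col-0 replicate 2 (adjusted p = 0.0659 and 0.0921), with only the libraries of the comparison (0.0818 and 0.102) and under limma-voom (0.0775 and 0.0747). Limma-voom gave PR1 an adjusted p of 0.525. This comparison shares the Col-0 libraries with the Dex effect in Col-0.

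**Figure D2:**
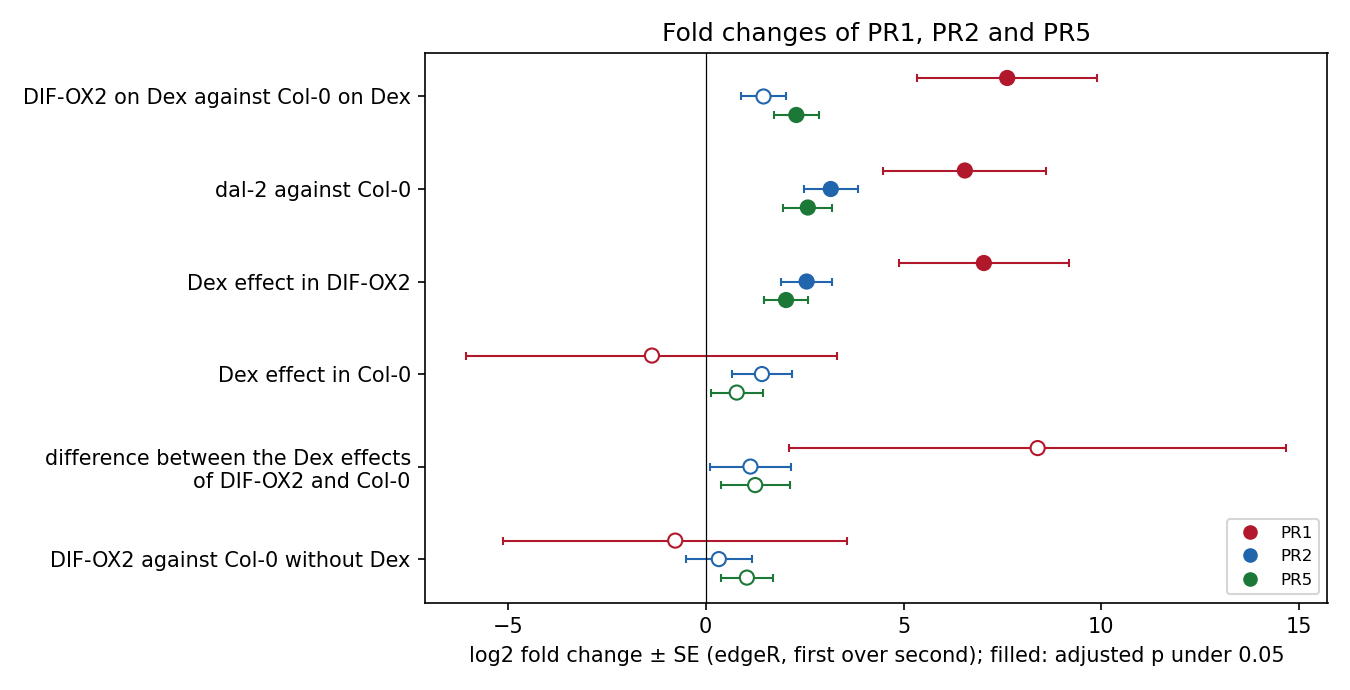
Log2 fold change of PR1 (red), PR2 (blue) and PR5 (green) in the 6 comparisons, first group over second, with bars of 1 SE and filled circles for an adjusted p under 0.05. PR1 has the widest bars and had 2 to 4 counts in the groups where it is low, and PR2 is open in the top comparison at an adjusted p of 0.108.

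The replicates of dal-2 disagreed on all 3 genes and in the same direction. PR1 was 110-fold higher in replicate 1 than in replicate 2, a log2 difference of 6.78 (95% counting interval 5.73 to 8.11). Only 5 of the 18605 genes with at least 50 counts in the 2 libraries together (0.0269%) differed as much in either direction, PR1 included. PR2 differed 4.08-fold (2.03 in log2, interval 1.58 to 2.50) and PR5 3.90-fold (1.96, interval 1.67 to 2.26) between the same libraries, where 2.50% and 2.75% of genes differed at least as much. Of these genes, 2.59% differed over 4-fold between the dal-2 replicates and 0.817% were over 4-fold higher in replicate 1. The counting intervals cover counting error only and lie far from 0 for all 3 genes.

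The induced DIF-OX2 replicates agreed closely by comparison. PR2 differed 1.11-fold (log2 difference 0.15, interval −0.34 to 0.63) and PR5 1.08-fold (0.11, interval −0.13 to 0.35), both within counting error. Over 18256 genes, 56.5% differed as much as PR2 and 65.9% as much as PR5. PR1 was 1.51-fold higher in replicate 1 (0.59, interval 0.31 to 0.87), more than counting error allows, and 7.30% of genes differed as much. Only 0.0329% of genes differed over 4-fold between these libraries. In the other groups, the widest gap of these 3 genes where the pair had at least 50 counts was that of PR5 in Col-0, 2.07-fold (1.05, interval 0.17 to 1.98).

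Leaf markers moved with the dal-2 gap, in the opposite direction. RBCS1A, the small subunit of Rubisco, was at 823 CPM in replicate 1 and 2230 CPM in replicate 2, and CA1, a chloroplast carbonic anhydrase, at 7.57 and 66.6 CPM. LHCB1.3, a light-harvesting protein, was at 362 and 516 CPM, so all 3 leaf markers were lower in the dal-2 replicate with more PR1. The induced DIF-OX2 pair ran otherwise: all 3 were higher in replicate 1 (log2 ratios 0.517 to 0.871), as PR1 was (0.591). Against Col-0 all 3 were called lower in dal-2 (median log2 fold change −4.93), and 1 of 3 was called lower in induced DIF-OX2 against Col-0 on Dex (median −1.41). The LHCB1.3 call in induced DIF-OX2 was lost without either Col-0 library on Dex or without induced replicate 2 (adjusted p up to 0.126). The 5 root markers added up to 143 and 201 CPM in induced DIF-OX2, 119 and 86.6 CPM in dal-2 and 119 to 156 CPM in the other libraries. Of these 5, 1 was called higher in induced DIF-OX2 against Col-0 on Dex (PRP3, 0.53, adjusted p = 0.0263) and 3 were called lower in dal-2 against Col-0 (PRP3, EXPA7 and CASP1, median over the 5 −0.83). Of these calls, that of PRP3 in dal-2 was kept whichever library was left out (adjusted p up to 0.0313), and the others were lost without 1 to 3 of the 4 (up to 0.202). All 5 were higher in dal-2 replicate 1 than in replicate 2, by 0.23 to 1.14 on the log2 scale, the same direction as the PR genes. In induced DIF-OX2 all 5 were lower in replicate 1 (log2 ratios −0.742 to −0.281), opposite to PR1. The part of leaf and root markers in the PR values was not tested. Of 5 senescence genes 4 were tested. In induced DIF-OX2 against Col-0 on Dex 2 were called higher, SAG13 and WRKY53, which are also counted in salicylate lists below. In dal-2 against Col-0 3 were called higher, and none was called lower in either. NAP ran lower without passing (−1.99, adjusted p = 0.0815, in induced DIF-OX2 and −1.28, adjusted p = 0.181, in dal-2). Beside these marker counts, 11.6% of all genes were called higher and 10.4% lower in induced DIF-OX2, and 15.9% higher and 18.0% lower in dal-2. SAG12 had no count in any library, and SAG13 was at 15.4 and 35.2 CPM in the dal-2 replicates, the opposite order to PR1. SAG13 passed the filter only through induced DIF-OX2 and dal-2, the groups in which it is high, so its calls are a description.

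**Figure D3:**
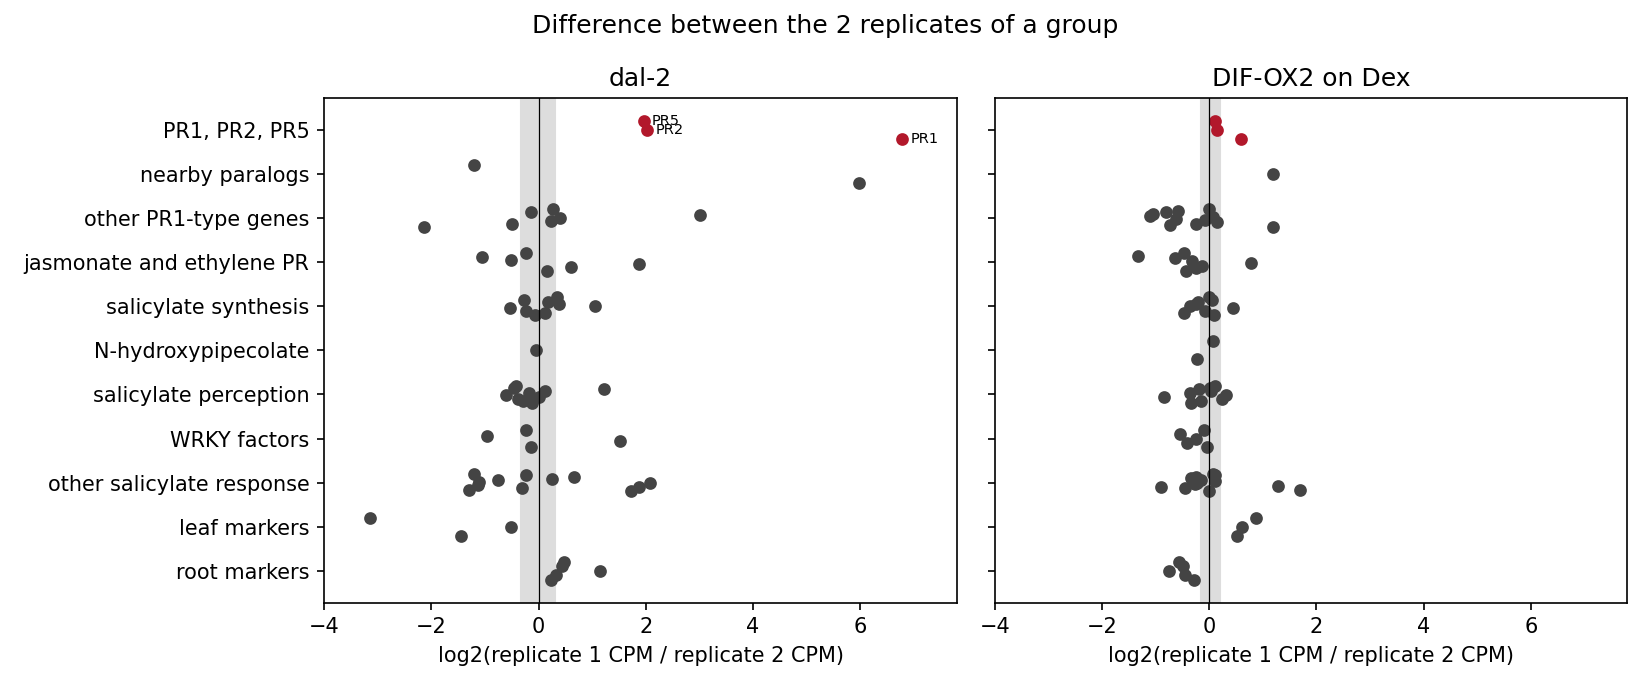
Log2 ratio of replicate 1 to replicate 2 in dal-2 (left) and DIF-OX2 on Dex (right), with 1 point per gene that had at least 50 counts in the pair, PR1, PR2 and PR5 in red and the other lists in dark grey. The grey band is the interquartile range of all such genes, from −0.33 to 0.30 in dal-2 and from −0.16 to 0.20 in the right panel. In the left panel PR1 lies at 6.78.

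The nearest relatives of the 3 genes were examined because reads could be shared between copies. PRB1, a basic PR1 protein, lies near PR1 and matches it at 83.5% of 486 coding bases. PRB1 was at 2.46 and 0.333 CPM in dal-2, against 9.36 and 7.55 CPM in Col-0, and was called lower (log2 fold change −2.65, adjusted p = 0.0170), opposite to PR1. That call was lost without either Col-0 library (adjusted p up to 0.0766). In induced DIF-OX2 it was at 6.46 and 2.85 CPM, against 5.98 and 5.72 CPM in Col-0 on Dex (−0.38, adjusted p = 0.699). BG3, a beta-1,3-glucanase next to PR2 with 74.7% of 1017 aligned coding bases identical, was at 10.4 and 0.167 CPM in dal-2 (153 and 3 counts), a gap of 62.7-fold. BG3 had 0 and 2 counts in Col-0, and dal-2 against Col-0 did not pass (adjusted p = 0.0651). It had 4 and 24 counts in induced DIF-OX2, against 0 and 1 in Col-0 on Dex (adjusted p = 0.269). The replicate gap of BG3 in dal-2 thus lay between the 110-fold of PR1 and the 4.08-fold of PR2. TLP-3, which matches PR5 at 79.4% of coding bases, was at 1.16 and 2.66 CPM in dal-2, against 1.34 and 1.40 CPM in Col-0 (adjusted p = 0.466), while BG1 and AT1G75050 had too few counts to test. The longest identical runs were 23 bases for PR1 and PRB1, 23 for PR2 and BG3, and 30 for PR5 and AT1G75050. The sources used here do not say how reads with several alignments were handled, so the split of counts between copies is uncertain.

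PR2 and BG3 also share part of their upstream sequence, shown here because their replicate gaps in dal-2 differed. The longest similar ungapped stretch spans 77 bases, of which 66 (85.7%) are identical, and capitals mark the identical bases (RefSeq TAIR10.1, minus strand).
PR2, chr3:21189997-21190073: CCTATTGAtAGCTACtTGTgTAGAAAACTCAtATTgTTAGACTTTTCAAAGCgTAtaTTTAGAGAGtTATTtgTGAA
BG3, chr3:21183195-21183271: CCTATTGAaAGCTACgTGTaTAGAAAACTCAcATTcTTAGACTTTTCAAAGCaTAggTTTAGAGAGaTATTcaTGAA
The stretch begins 106 bases before the start of PR2 and 127 bases before that of BG3.

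Of 21 other genes encoding CAP proteins, PRB1 among them, 13 were tested, and in induced DIF-OX2 against Col-0 on Dex 4 were higher and 2 lower, with a median log2 fold change of 0.27 (0.01 over all genes, of which 22.0% were called). In dal-2 against Col-0, 1 was higher and 4 were lower, with a median of −0.59 (0.03 over all genes), a count near the 33.9% of all genes called. AT4G33720, which encodes a CAP protein, was at 79.2 and 164 CPM in induced DIF-OX2, against 1.80 and 0.341 CPM in Col-0 on Dex (6.94, adjusted p = 0.00262). In dal-2 it was at 8.05 and 0.999 CPM, against 0.446 and 0.108 CPM in Col-0 (3.96, adjusted p = 0.0642), with replicate 1 again the higher. AT2G19970, another CAP gene, was at 150 and 178 CPM in induced DIF-OX2, against 30.2 and 29.8 CPM in Col-0 on Dex (2.45, adjusted p = 1.37e-04). In dal-2 AT2G19970 was called lower (−0.59, adjusted p = 0.0288), a call lost without either Col-0 library or dal-2 replicate 1 (adjusted p up to 0.130). AT4G25780 was lower in both comparisons (−1.56, adjusted p = 0.00895, in induced DIF-OX2; −3.88, adjusted p = 2.48e-04, in dal-2), though the call in induced DIF-OX2 was lost without Col-0 on Dex replicate 1 or induced replicate 2 (adjusted p up to 0.0759). The gap between dal-2 replicates ran the other way in AT1G50060, at 0.682 and 3.00 CPM.

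Of 9 genes of salicylate synthesis, transport and their regulation, 6 were higher and none lower in induced DIF-OX2 against Col-0 on Dex, with a median log2 fold change of 1.02, where 11.6% of all genes were called higher. Of the 4 synthesis and transport genes among them, EDS5 and PBS3 passed, while ICS1 and EPS1 did not (EPS1 −0.24, adjusted p = 0.571). The other genes called were regulators, SARD1 (6.0, adjusted p = 2.32e-04), CBP60g (2.54, adjusted p = 0.00445), PAD4 (0.83, adjusted p = 0.0181) and SAG101 (1.02, adjusted p = 0.0164). The calls of PAD4 and SAG101 were lost without any 1 of the 4 libraries (adjusted p up to 0.104). In dal-2 against Col-0, 3 of the 9 were higher and 1 was lower, with a median of 0.42, where 33.9% of all genes were called. ICS1, the isochorismate synthase of the pathway, was at 26.1 and 24.6 CPM in induced DIF-OX2, against 20.0 and 20.4 CPM in Col-0 on Dex (0.33, adjusted p = 0.0870). ICS1 was lower in dal-2, at 13.2 and 13.9 CPM, against 19.7 and 21.5 CPM in Col-0 (−0.60, adjusted p = 0.00738). EDS5, the plastid exporter, rose in induced DIF-OX2 (1.03, adjusted p = 0.0121) but was at 9.08 and 8.33 CPM in dal-2, against 9.25 and 7.01 CPM in Col-0 (adjusted p = 0.762). PBS3, which conjugates isochorismate to glutamate, was at 31.0 and 32.7 CPM in induced DIF-OX2, against 1.80 and 1.36 CPM in Col-0 on Dex (4.34, adjusted p = 6.25e-05). In dal-2 PBS3 was at 3.21 and 3.77 CPM, against 1.67 and 2.37 CPM in Col-0 (0.79, adjusted p = 0.0384). SARD1, a transcription factor that activates ICS1, was at 9.01 and 4.33 CPM in dal-2, against 1.23 and 0.755 CPM in Col-0 (2.73, adjusted p = 0.00689). The EDS5 call was lost without either Col-0 library on Dex or without induced replicate 2 (adjusted p up to 0.107). In dal-2, the calls of ICS1 and SARD1 were lost without Col-0 replicate 2 (adjusted p = 0.0692 and 0.0531), and that of PBS3 without Col-0 replicate 1 or dal-2 replicate 2 (adjusted p up to 0.163).

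For N-hydroxypipecolate, the mobile signal that works with salicylate, 2 of 3 synthesis genes were higher in induced DIF-OX2 against Col-0 on Dex and none of 3 in dal-2 against Col-0. Among all genes, 11.6% were called higher in the induced comparison and 15.9% in dal-2. FMO1, the last enzyme, was at 3.88 and 4.55 CPM in induced DIF-OX2, against 0.190 and 0.204 CPM in Col-0 on Dex (4.35, adjusted p = 0.00884). FMO1 passed the filter only through induced DIF-OX2 and dal-2, the groups in which it is high, so its p-values are a description. In dal-2 FMO1 was at 2.05 and 0.333 CPM, against 0.223 and 0.108 CPM in Col-0 (adjusted p = 0.0751), so replicate 1 was the higher as for PR1. ALD1, the first enzyme, had 0.431 and 0.182 CPM in induced DIF-OX2, against 0.759 and 1.16 CPM in Col-0 on Dex. That difference, opposite to FMO1, did not pass (−1.77, adjusted p = 0.0834), whereas in dal-2 ALD1 was called lower (−1.97, adjusted p = 0.0321). The FMO1 call was lost without either Col-0 library on Dex or induced replicate 2 (adjusted p up to 0.0803), and the ALD1 call without either Col-0 library or dal-2 replicate 2 (adjusted p up to 0.187).

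Of 11 receptors and cofactors of salicylate, 10 were tested, with 2 higher and none lower in induced DIF-OX2 against Col-0 on Dex (median 0.14) and 2 higher and 1 lower in dal-2 against Col-0 (median 0.39). Both counts lie near the shares of all genes called, 22.0% and 33.9%. NPR1, the receptor and coactivator, was at 33.4 and 36.4 CPM in dal-2, against 26.2 and 27.3 CPM in Col-0 (0.38, adjusted p = 0.0596). In induced DIF-OX2 NPR1 was at 27.9 and 35.2 CPM, against 30.6 and 27.9 CPM in Col-0 on Dex (0.11, adjusted p = 0.594). TGA3, a TGA factor, was higher in both comparisons (1.10, adjusted p = 0.0449, in induced DIF-OX2; 1.44, adjusted p = 0.0134, in dal-2), and at 49.2 and 21.2 CPM in the dal-2 replicates. NIMIN2, which binds NPR1, rose in induced DIF-OX2 (2.17, adjusted p = 0.0142) and NPR3, a further salicylate receptor, was lower in dal-2 (−0.89, adjusted p = 0.0192). With 1 library left out, TGA3 was lost in induced DIF-OX2 whichever it was (adjusted p up to 0.216) and in dal-2 without either Col-0 library (up to 0.0707). NIMIN2 was lost without either Col-0 library on Dex or induced replicate 2 (up to 0.134), and NPR3 without Col-0 replicate 2 or dal-2 replicate 1 (up to 0.154).

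Of 6 WRKY factors of the pathway, 5 were tested; 3 were higher and none lower in induced DIF-OX2 against Col-0 on Dex, and 1 was higher and 1 lower in dal-2 against Col-0. Over all genes 11.6% were called higher in the induced line, and the dal-2 count is near the 33.9% of all genes called there. WRKY18 was at 56.0 and 81.3 CPM in induced DIF-OX2, against 5.03 and 10.8 CPM in Col-0 on Dex (3.09, adjusted p = 0.0123). WRKY70, which promotes salicylate responses, was lower in dal-2, at 7.51 and 8.33 CPM, against 19.3 and 30.5 CPM in Col-0 (−1.65, adjusted p = 0.00282). WRKY70 was thus low in both dal-2 libraries, including the one with 628 PR1 counts, and its part in the PR1 values was not tested. WRKY53, a factor of defence and senescence, was higher in both comparisons (1.58, adjusted p = 0.00262, in induced DIF-OX2; 2.20, adjusted p = 4.34e-04, in dal-2). The WRKY18 call was lost without either Col-0 library on Dex or induced replicate 2 (adjusted p up to 0.0938).

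Of 14 further genes that respond to salicylate, 7 were higher and none lower in induced DIF-OX2 against Col-0 on Dex (median 1.34). In dal-2 against Col-0, 6 were higher and 1 was lower (median 1.16). The shares of all genes called higher and lower were 11.6% and 10.4% in the induced comparison and 15.9% and 18.0% in dal-2. LURP1, a gene of defence against downy mildew, was at 112 and 113 CPM in induced DIF-OX2, against 1.23 and 6.27 CPM in Col-0 on Dex (4.84, adjusted p = 0.00437). In dal-2 LURP1 was at 16.2 and 4.89 CPM, against 0.780 and 1.08 CPM in Col-0 (3.47, adjusted p = 0.0284), a call lost without either Col-0 library or dal-2 replicate 1 (adjusted p up to 0.125). PNP-A, a secreted natriuretic-like peptide, was at 7.0 and 13.0 CPM in induced DIF-OX2, and the wild type on Dex gave no count. With 3 counts set over the Col-0 pair, PNP-A was at least 91.1-fold higher (adjusted p = 0.00261). It passed the filter only through induced DIF-OX2 and dal-2, the groups in which it is high, so its p-value is a description. AED1, an apoplastic protease, was the gene of this list with the widest dal-2 gap among those with at least 50 counts, at 9.62 and 2.28 CPM (4.23-fold), and was not called against Col-0 (1.57, adjusted p = 0.0875). Between the dal-2 replicates, 1 of the 12 genes of this list with at least 50 counts was over 4-fold higher in replicate 1 and none in replicate 2. The share of all genes with at least 50 counts that were over 4-fold higher in replicate 1 was 0.817%. Over the 12 genes the median log2 ratio of replicate 1 to replicate 2 was −0.277, opposite in sign to the PR genes. The ratios ran from −1.3 (ACD6, 6.07 and 14.9 CPM) to 2.08 (AED1).

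A further list held 11 genes known to answer to jasmonate or ethylene, among them PR3, PR4, the PDF1.2 defensins, vegetative storage proteins and the regulators ORA59 and ERF1. Of these 8 were tested, with 5 higher and 1 lower in induced DIF-OX2 against Col-0 on Dex (median 2.65). In dal-2 against Col-0, 4 were higher and none lower (median 1.2). Among all genes tested, 11.6% were called higher and 10.4% lower in the induced comparison, and 15.9% higher and 18.0% lower in dal-2. The gene called lower in induced DIF-OX2 was VSP2, a vegetative storage protein (−1.88, adjusted p = 0.0188). That call was lost without either Col-0 library on Dex or induced replicate 1. PR3, a basic chitinase, was at 113 and 153 CPM in induced DIF-OX2, against 20.7 and 21.4 CPM in Col-0 on Dex (2.66, adjusted p = 1.31e-04). In dal-2 PR3 was at 44.6 and 40.2 CPM, against 20.7 and 17.7 CPM in Col-0 (1.14, adjusted p = 0.00252), so its dal-2 replicates agreed within 1.11-fold. PR4, a hevein-like protein, was at 243 and 160 CPM in dal-2, against 45.2 and 45.7 CPM in Col-0 (2.14, adjusted p = 3.88e-04). PDF1.2a, a plant defensin, was at 8.94 and 9.78 CPM in induced DIF-OX2, and the wild type on Dex gave no count. With 3 counts set over that pair, PDF1.2a was at least 79.7-fold higher (adjusted p = 0.00143). It passed the filter only through the induced libraries, the group in which it is high, so its p-value is a description and no independent support. In dal-2 PDF1.2a had 0 and 1 counts and did not pass (adjusted p = 0.467). ORA59, an activator of defensin genes, was at 8.12 and 2.22 CPM in dal-2, against 0.111 and 0.216 CPM in Col-0 (adjusted p = 0.0114). The ORA59 call was lost without either Col-0 library (adjusted p up to 0.0700).

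The genes whose levels ran most like each PR gene were found among 16524 genes whose mean count was 50 or more, by Pearson correlation of log2(CPM + 0.5) over the 10 libraries. These are descriptions over libraries that share groups, with no test. For PR1 they were AT1G35220 (r = 0.984), AT4G12500 (0.977), PLDALPHA1 (0.976), CalS7 (0.976) and UCP5 (0.971). AT4G12500, annotated as a lipid-transfer protein, was at 14.5 and 16.8 CPM in induced DIF-OX2, 16.4 and 3.00 CPM in dal-2 and 2.01 to 3.47 CPM in the other libraries, a pattern with a far smaller range than that of PR1. For PR2 they were AT1G15125 (0.989), AT4G38050 (0.987), TSB1 (0.985), AT1G09870 (0.976) and TGA3 (0.973). AT1G15125, annotated as a methyltransferase, was at 53.2 and 4.83 CPM in dal-2 and at 13.5 and 11.7 CPM in induced DIF-OX2. TSB1, which makes tryptophan, was at 188 and 113 CPM in dal-2 and 152 and 159 CPM in induced DIF-OX2. For PR5 they were CID10 (0.973), AIG2 (0.969), AT4G19010 (0.963), AT3G17780 (0.960) and RANGAP2 (0.960). Without dal-2 replicate 1, none of the 5 stayed among the 5 closest to PR1 or PR5, and 2 stayed for PR2. Among themselves, PR1 and PR2 had r = 0.904, PR1 and PR5 0.921, and PR2 and PR5 0.925, or 0.841, 0.897 and 0.906 without dal-2 replicate 1.

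**Figure D4:**
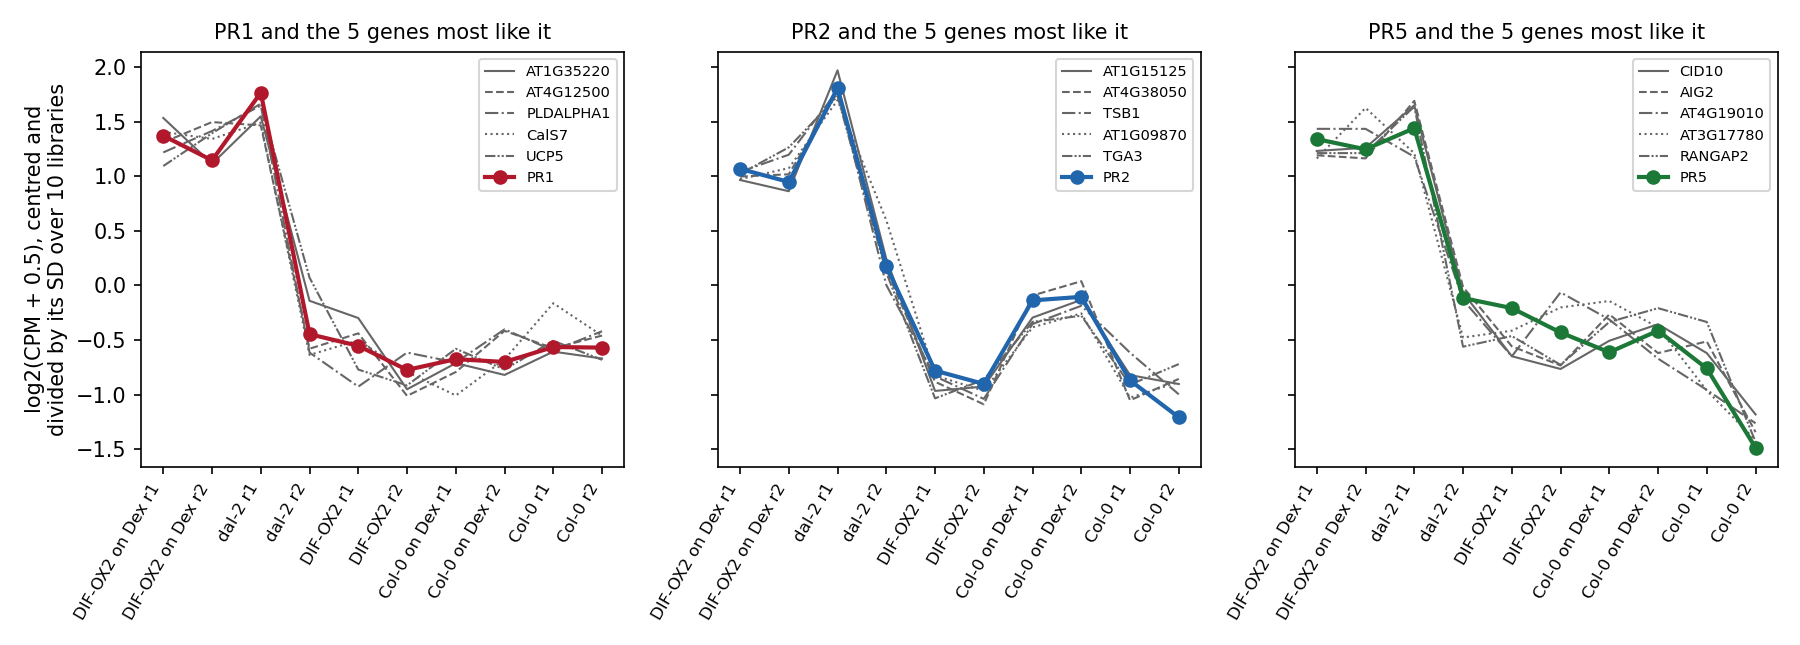
Level of each PR gene (coloured, with points) and of the 5 genes most like it (grey), as log2(CPM + 0.5) centred and divided by its SD over the 10 libraries. In each panel the 3 highest libraries are both of DIF-OX2 on Dex together with dal-2 replicate 1, and dal-2 replicate 2 (0.389 CPM for PR1, 2.94 for PR2 and 6.88 for PR5) lies below them.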

How the data were processed

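Counts per gene from RNA sequencing of whole seedlings were used as deposited. Per the submitters' processing notes, the authors used Trimmomatic, TopHat2 and HTSeq with the TAIR10 genome. The sources used here give no versions, strand setting or rule for reads with several alignments, and antisense or near-identical genes may share counts. From these counts, genes were filtered with filterByExpr (20681 tested, 12921 removed), scaled by TMM, and fitted in edgeR 4.0.16 (R 4.3.3) by the quasi-likelihood test with 1 coefficient per group over all 10 libraries. Benjamini-Hochberg adjustment ran over all tested genes, with a call at 0.05. The SE is the log2 fold change divided by the root of the F value. Depth was 8805568 to 16556322 counts per library. Count ratios and replicate ratios carry 95% counting intervals, which cover counting error only. A group with no count was set to 3 counts over the group for a bound. Symbols, products and sequences came from RefSeq TAIR10.1, which held 32835 of the 33602 genes. The promoter of PR1 is not reported here.

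The PR genes and all gene lists were chosen with earlier results of these data known. Beside the PR genes, their near copies and DAL, named list genes were the first 3 of each list, the 2 largest changes in each of the 2 main comparisons, and genes over 4-fold apart in dal-2; the text gives a part of these. EPS1, CBP60g, PAD4 and VSP2 were named after their values were seen. Values of list members were not adjusted over a list. The calculation was tested on simulated counts in which every gene and group had the same spread. The wider spread of dal-2 was not simulated, so that test does not bear on the dal-2 calls. Alternatives were DESeq2 size factors, no filter, only the libraries compared, a fit without dal-2, DESeq2 1.42.0, limma-voom (limma 3.58.1), a robust spread, a replicate block, and each library left out.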

Additional observations from a re-analysis of the deposited data

How the results depend on the processing

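Across the processing alternatives, all calls of PR1, PR2 and PR5 were the same with DESeq2 size factors, no filter, a robust spread and the replicate block. The replicate gaps of the 3 genes kept their size with DESeq2 size factors and with raw totals. Libraries that share a number deviated together among Col-0, Col-0 on Dex and DIF-OX2 (correlations 0.281 to 0.458) and weakly in Col-0 with dal-2 (0.124), but not in the other pairs of groups (−0.105 to 0.0973), so they were treated as unpaired. With the replicate block the counts of genes called were 5008 (induced DIF-OX2 against Col-0 on Dex), 7479 (dal-2), 5470 (Dex in DIF-OX2), 1525 (difference of Dex effects), 0 (Dex in Col-0) and 1 (uninduced DIF-OX2 against Col-0). Where calls changed, the cause was not tested.

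With only the libraries compared, the counts of genes called were 6892 (induced DIF-OX2 against Col-0 on Dex), 2258 (dal-2), 3681 (difference of Dex effects) and 0 (uninduced DIF-OX2 against Col-0). PR2 then passed for induced DIF-OX2 against Col-0 on Dex (1.45, adjusted p = 0.00298). In dal-2, PR2 (3.16) and PR5 (2.57) no longer passed, and PR1 could not be fitted there or for Dex in Col-0, since the filter removed it. Without both dal-2 libraries the counts were 7065, 7632 for Dex in DIF-OX2, and 3681 for the difference, with PR2 at 1.46. In both of these fits the PR1 difference of Dex effects passed at 8.37, as it did with the DESeq2 Wald test at 8.62, which called 2035 genes for the difference and 6 for uninduced DIF-OX2 against Col-0. Under limma-voom PR1 missed at 7.15 (induced DIF-OX2 against Col-0 on Dex), 3.70 (dal-2) and 7.22 (Dex in DIF-OX2). PR2 missed at 2.73 in dal-2 and 2.50 for Dex in DIF-OX2, and PR5 at 2.30 in dal-2.

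With 1 library left out, induced DIF-OX2 against Col-0 on Dex gave 1343 to 3303 genes, PR1 at 7.30 to 7.88 and PR5 at 2.15 to 2.44. In dal-2 the values were 3891 to 8352 genes, PR1 at 0.79 to 7.53, PR2 at 1.82 to 3.84 and PR5 at 1.29 to 3.25. The PR1 call there was lost without dal-2 replicate 1 or either Col-0 library. Dex in DIF-OX2 gave 1394 to 3645 genes, PR1 at 6.14 to 10.8, PR2 at 2.45 to 2.66 and PR5 at 1.89 to 2.19. The difference of Dex effects gave 190 to 1200 genes. The uninduced line against Col-0 gave 0 to 1. PR1 in that last comparison, which rests on 7 counts in all, ran from −4.51 to 0.12. Some uncalled genes changed sign when 1 library was left out. In induced DIF-OX2 against Col-0 on Dex the ranges were −0.207 to 0.584 for TLP-3 (also −0.182), −1.04 to 0.137 for PRB1 and −0.0754 to 0.256 for NPR1. In dal-2 they were −0.139 to 0.177 for AT5G52810, −0.0316 to 0.367 for EDS5, −1.71 to 0.405 for AT1G50060, −0.694 to 2.11 for WRKY38, −0.248 to 0.945 for TLP-3, −0.370 to 0.928 for ACD6, −0.0194 to 0.483 for PAD4 (also −0.000674) and −1.10 to 0.0385 for COBL9.

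With 2 libraries a group and 2 to 4 PR1 counts in each low group, the size of the PR1 fold is poorly known: the counting intervals leave out the spread between libraries. PR1 had at most 3 counts per library in those groups, so the agreement of their replicates cannot be judged.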
